A study of Oryza sativa with 12 samples.

Results

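The genes described here are 8 rice loci of PEP metabolism, taken from 22744 loci that were tested. They comprise the loci listed for pyruvate, phosphate dikinase (PPDK, Os05g0405000 and Os03g0432100), PEP carboxykinase (PEPCK, Os10g0204400), PEP carboxylase (Os02g0244700, Os08g0366000 and Os01g0208700) and NADP-malic enzyme (Os01g0188400 and Os05g0186300). They were chosen by enzyme class, and every probe named for one of these loci was included, 28 probes in all. Of these, 27 passed the filter on dim probes, and each locus kept at least 1 probe. The enzyme classes were assigned to the loci from general knowledge. The gene table used here holds none of these locus numbers. It lists a PPDK2 on chromosome 3 and a PPDKB on chromosome 5. On chromosome 1 it lists a gene ME6, also called NADP-ME, and an NADP-ME2. Chromosomes 1 and 5 each carry more than 1 of the 8 loci, and no listed name is paired with a single locus.

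The samples were leaves of 2 Oryza sativa genotypes, FR13A, a submergence-tolerant landrace, and Goda Heenati. Seedlings 14 d old stood completely submerged for 3 d in a tank with water 70 cm deep, or as controls in a tank holding no water. At the start the shoot tips lay 52.7 ± 2.3 cm below the surface in FR13A and 45.9 ± 2.9 cm below it in Goda Heenati. The 4 groups were FR13A control, FR13A submerged, Goda Heenati control and Goda Heenati submerged, each with 3 biological replicates. About 20 plants from different pots were pooled for each sample, so plant-to-plant variation was averaged before measurement. Each sample was labelled with Cy3 and hybridised to 1 one-colour Agilent rice array, 12 in all.

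Phosphoenolpyruvate (PEP) sits between glycolysis, the organic acids and gluconeogenesis. PPDK converts pyruvate to PEP reversibly, using ATP and phosphate and releasing pyrophosphate. PEP carboxylase fixes bicarbonate onto PEP to give oxaloacetate, PEPCK turns oxaloacetate back into PEP, and NADP-malic enzyme splits malate into pyruvate and CO2 with the formation of NADPH. In C4 leaves the same enzymes drive the CO2 pump. In C3 leaves such as those of rice they replenish organic acids and recycle carbon, and PPDK is known to be induced in rice seedlings deprived of oxygen.

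Per array, 30643 to 34291 of the 42418 probes were well above background, and arrays of a group correlated with r from 0.939 to 0.968 over loci, which are not independent replicates. Each of the 3 slides carried all 4 groups, and the replicate number equals the slide. On slide 1, whose scan fell on a different day, 1837 to 2406 probes of an array were saturated, against 0 on the other slides, so values of bright probes there are held down. All 12 arrays placed the 5 leaf markers, which are photosynthesis loci, well above background. Of the 4 root markers 1 was well above background on 0 arrays, 1 on 1 array, 1 on 6 and 1 on all 12. The last, Os02g0745100, had a mean level of -1.05 in FR13A controls and -2.79 in submerged FR13A, and of -1.10 and -2.69 in Goda Heenati, and its part in the results was not tested. Of the 3 endosperm markers 2 were well above background on all 12 arrays and 1 on 4, and the meristem marker was so on 7.

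The comparison of submerged with control leaves asked which loci differed after 3 d under water, in each genotype separately. In both genotypes the PPDK locus Os03g0432100 and the PEPCK locus Os10g0204400 rose, the PEP carboxylase locus Os08g0366000 fell, and the other 5 loci were not called. A locus was called at a limma adjusted p under 0.05, over all 22744 loci, with a difference of at least 2-fold. Of the 8 loci 2 were called higher in FR13A, where 10% of all loci were, and 1 was called lower, where 11.8% of all loci were. In Goda Heenati the same counts, 2 higher and 1 lower, stood against 9.08% and 11.5% of all loci. The median log2 difference of the 8 loci was 0.25 in FR13A and 0.07 in Goda Heenati, against 0.05 and 0.09 for all loci. At an unadjusted p under 0.05, in the fit without a replicate block, the loci numbered 4 in FR13A and 3 in Goda Heenati. The share of all loci at that threshold was not taken, so these counts cannot be set against it.

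**Figure D1:**
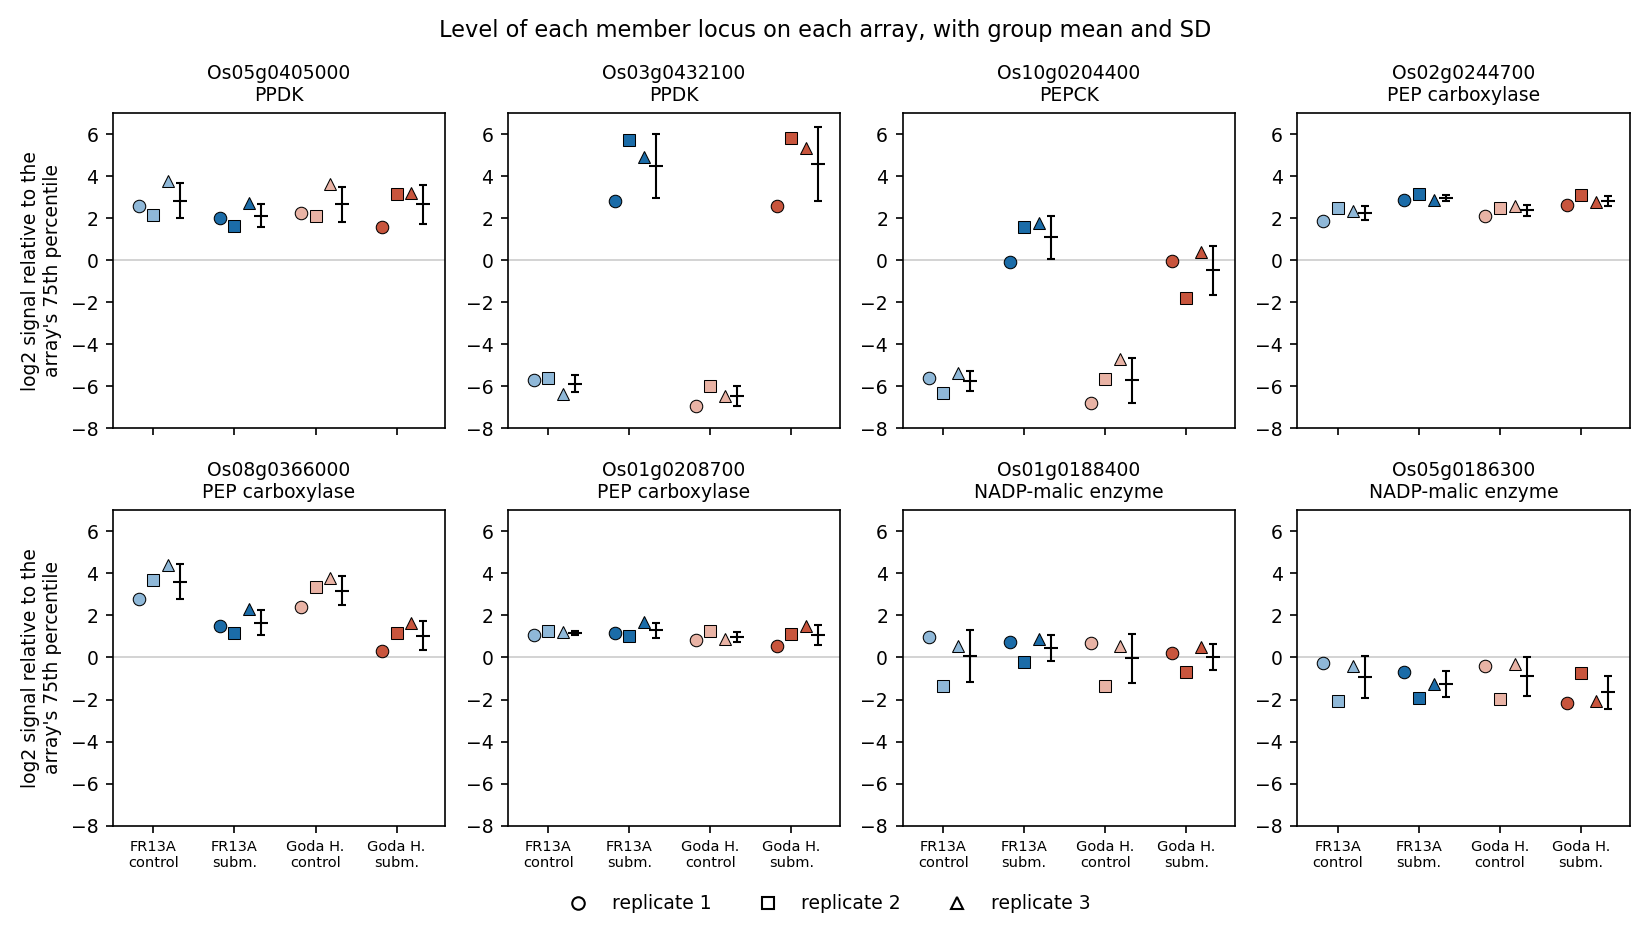
Level of the 8 loci on each of the 12 arrays, as the log2 processed signal minus the array's 75th percentile, with 1 panel per locus at its brightest probe. Circles, squares and triangles are replicates 1, 2 and 3, and bars are the mean and SD over 3 arrays. Heights compare within a panel only. Submerged arrays of Os03g0432100 lie between 2.58 and 5.83 and its controls between -6.93 and -5.61.

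Os03g0432100, a PPDK locus, had the largest log2 difference of the 8 in both genotypes. Levels here are log2 processed signals minus the 75th percentile of their array, in the order of replicates 1, 2 and 3. In FR13A they were -5.70, -5.61 and -6.35 in controls and 2.80, 5.70 and 4.93 after submergence. In Goda Heenati they were -6.93, -6.01 and -6.48 in controls and 2.58, 5.83 and 5.33 after submergence. Every submerged array was far above every control array, and replicate 1, on the slide with saturated spots, was the lowest of the submerged arrays in both genotypes. The unscaled processed signal shows the same step, from 198, 110 and 71.0 in FR13A controls to 63398, 230380 and 156710 in submerged FR13A. In Goda Heenati it went from 110, 101 and 71.6 to 62603, 263480 and 241400. The probe was saturated on both submerged arrays of slide 1, so their values are lower limits. It was well above background on all 3 control arrays of FR13A and on 2 of 3 in Goda Heenati.

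The log2 difference of Os03g0432100 was 10.36 ± 0.87 (SE, 3 arrays per group) in FR13A, with a limma adjusted p of 3.67e-05, and 11.05 ± 0.87 in Goda Heenati, with an adjusted p of 2.56e-05. These are the 8th and 7th highest differences among 22744 loci. By replicate number the difference was 8.50, 11.31 and 11.28 in FR13A and 9.51, 11.84 and 11.81 in Goda Heenati, so all 6 pairs rose. With saturated spots left out, the estimates were 11.20 and 12.05. Here and throughout, a change in the number of cells of a type and a change in RNA per cell cannot be told apart in pooled leaves.

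The 3 kept probes of Os03g0432100 were all called higher, with log2 differences of 10.36 to 10.76 in FR13A and 11.05 to 12.16 in Goda Heenati. Of these, 2 cover the end of the coding sequence and the 3′ UTR and 1 covers the 5′ UTR and coding sequence. On the 5′ probe 1 of 3 FR13A control arrays was well above background and none of the Goda Heenati controls was. That probe passed the filter on dim probes only through the submerged groups, where it was high. Its fitted log2 difference in Goda Heenati, 12.16 (limma adjusted p = 3.03e-06), rests on control signals that were not well above background. As a bound, the probe was at least 2490-fold higher there after submergence. The bound sets the submerged mean against, for each control array, whichever is higher of the probe's signal and the dimmest signal that array still placed well above background.

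The other PPDK locus, Os05g0405000, did not show this step. All 12 arrays placed it well above background, with levels of 2.58, 2.16 and 3.76 in FR13A controls and 2.00, 1.64 and 2.70 after submergence. In Goda Heenati the levels were 2.24, 2.12 and 3.61 in controls and 1.59, 3.14 and 3.22 after submergence, and the groups overlapped in both genotypes. The log2 difference was -0.72 ± 0.58 in FR13A (limma adjusted p = 0.398; 95% confidence interval -2.01 to 0.57). In Goda Heenati it was 0.00 ± 0.58 (adjusted p = 0.997; -1.30 to 1.29). Both intervals end far below the 8.50 that was the smallest difference of Os03g0432100 in any pair of arrays. All 5 probes of Os05g0405000 gave similar values, from -0.96 to -0.72 in FR13A and from -0.11 to 0.04 in Goda Heenati, and at its brightest probe both slide 1 control arrays were saturated.

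**Figure D2:**
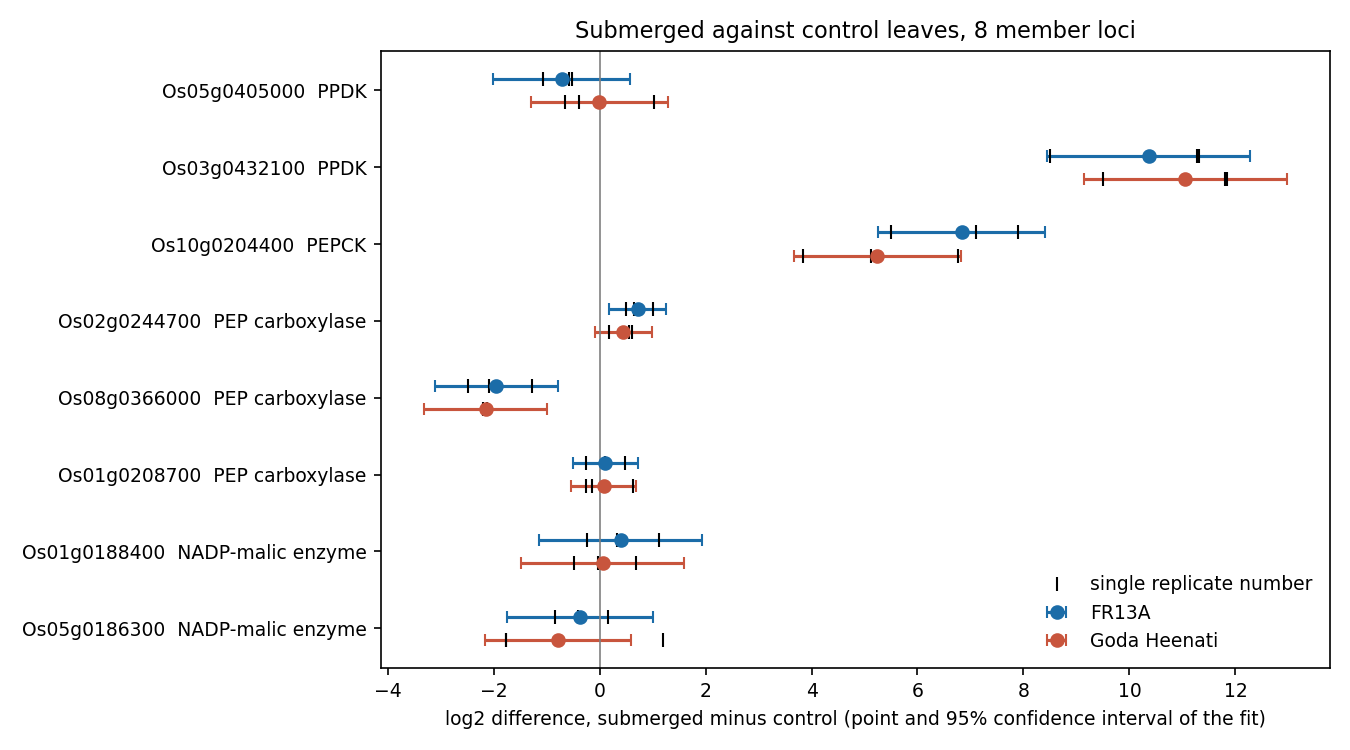
Log2 difference, submerged minus control, of the 8 loci in FR13A (blue) and Goda Heenati (red), with the 95% confidence interval that limma gave for 3 arrays in each group. Black ticks are the differences within a replicate number. Os03g0432100 and Os10g0204400 lie to the right of 3 and Os08g0366000 to the left of 0 with their whole intervals, in both genotypes.

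PEPCK, which returns oxaloacetate to PEP, was represented by Os10g0204400 and by 1 probe. Its levels in FR13A were -5.62, -6.31 and -5.36 in controls and -0.11, 1.59 and 1.75 after submergence. In Goda Heenati they were -6.82, -5.65 and -4.71 in controls and -0.05, -1.81 and 0.40 after submergence. Every submerged array exceeded every control array. The replicate that lay lowest after submergence was replicate 1 in FR13A and replicate 2 in Goda Heenati. On the unscaled signal the FR13A controls read 210, 68.1 and 142 and the submerged arrays 8460, 13324 and 17290. Of the Goda Heenati controls 2 of 3 were well above background.

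The log2 difference of Os10g0204400 was 6.84 ± 0.71 in FR13A (limma adjusted p = 0.000126) and 5.24 ± 0.71 in Goda Heenati (adjusted p = 0.000581). It ranked 48th from the top of all loci in FR13A and 105th in Goda Heenati. Within replicate numbers the difference was 5.51, 7.89 and 7.11 in FR13A and 6.77, 3.84 and 5.12 in Goda Heenati. With a single probe, no other measurement of this locus on the arrays can be set beside it.

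**Figure D3:**
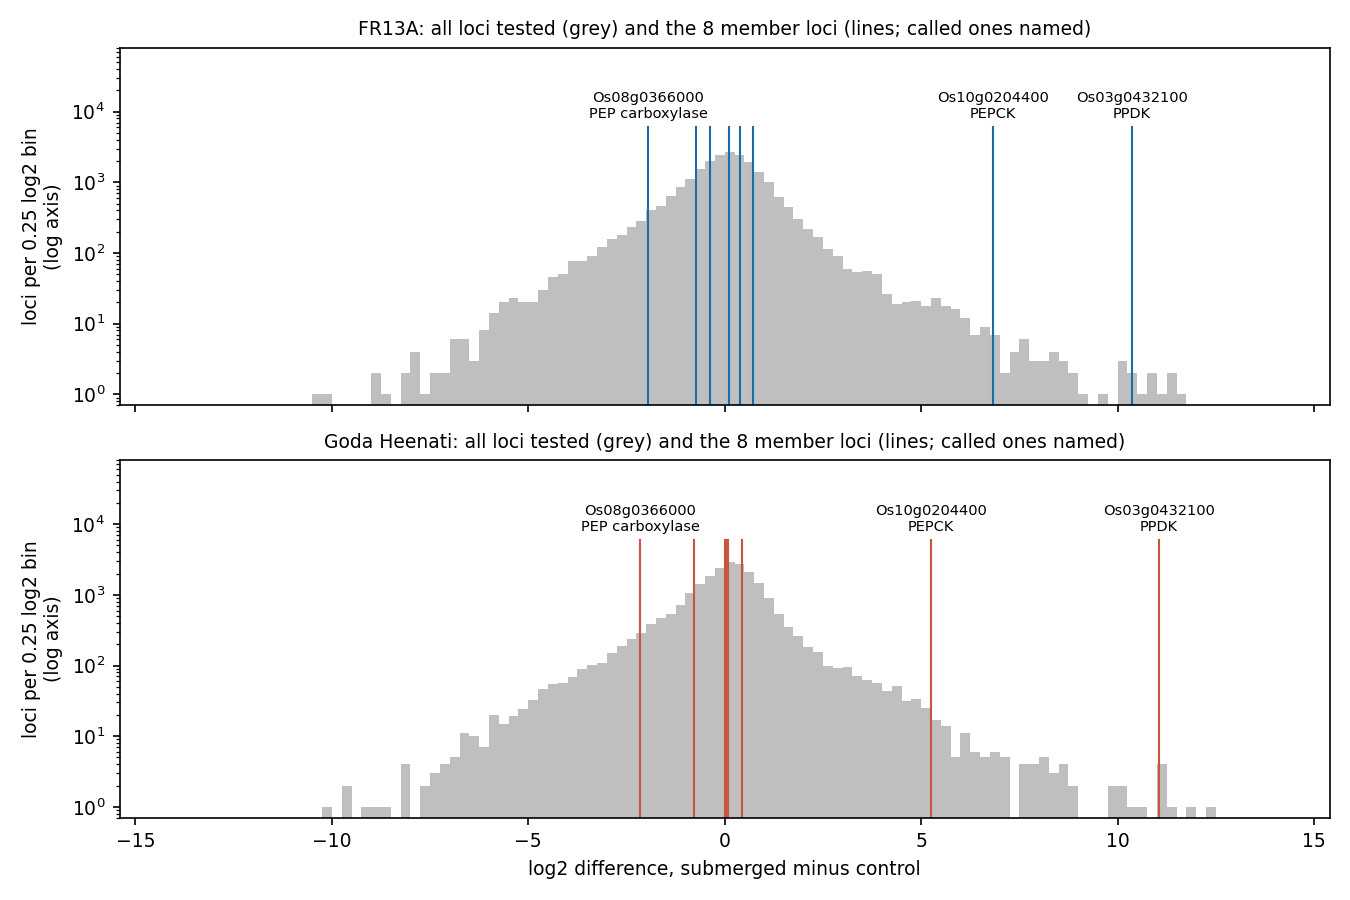
Distribution of the log2 difference, submerged minus control, over all 22744 loci in FR13A (upper) and Goda Heenati (lower), in bins of equal width with a logarithmic count axis. Vertical lines are the 8 loci, and the 3 called ones are named. Os03g0432100 and Os10g0204400 lie in the right tail, and the 5 loci not called lie near the centre.

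Of the 3 PEP carboxylase loci, the enzymes that draw PEP into oxaloacetate, 1 fell and 2 were not called. Os08g0366000 had levels of 2.77, 3.67 and 4.40 in FR13A controls and of 1.50, 1.18 and 2.31 after submergence. In Goda Heenati they were 2.42, 3.35 and 3.79 in controls and 0.29, 1.16 and 1.66 after submergence. The submerged arrays lay below the control arrays in both genotypes without overlap, although the lowest control and the highest submerged array of FR13A differed by less than 1 unit. In both genotypes replicate 3 was the highest array of each treatment.

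The log2 difference of Os08g0366000 was -1.95 ± 0.52 in FR13A (limma adjusted p = 0.0202), a level 3.86-fold lower, and -2.15 ± 0.52 in Goda Heenati (adjusted p = 0.0134), 4.43-fold lower. Within replicate numbers it was -1.27, -2.49 and -2.08 in FR13A and -2.13, -2.19 and -2.12 in Goda Heenati. All 5 probes were called lower in both genotypes, from -3.32 to -1.95 in FR13A and from -3.52 to -2.15 in Goda Heenati. The brightest probe, used for the locus, gave the smallest difference of the 5 and was saturated on both slide 1 control arrays. With saturated spots left out it gave -2.37 and -2.53.

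With arrays blocked by replicate number, Os08g0366000 was called lower at its brightest probe in both genotypes, with an SE of 0.25. The limma adjusted p was then 0.000548 in FR13A and 0.000350 in Goda Heenati. Without the block, the call at that probe depended on single arrays. In FR13A it was lost without control replicate 3 (-1.55, adjusted p = 0.0736), without submerged replicate 1 (-1.86, adjusted p = 0.0627) and without submerged replicate 2 (-1.70, adjusted p = 0.0826), all by limma. In Goda Heenati it was lost without control replicate 3 (-1.85, limma adjusted p = 0.0526) and without submerged replicate 1 (-1.78, adjusted p = 0.0549). In FR13A it was also lost with normexp background correction (-2.14, limma adjusted p = 0.0582). The normexp estimate failed on FR13A submerged replicate 2, and without that array the value was -1.81 (limma adjusted p = 0.0925).

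**Figure D4:**
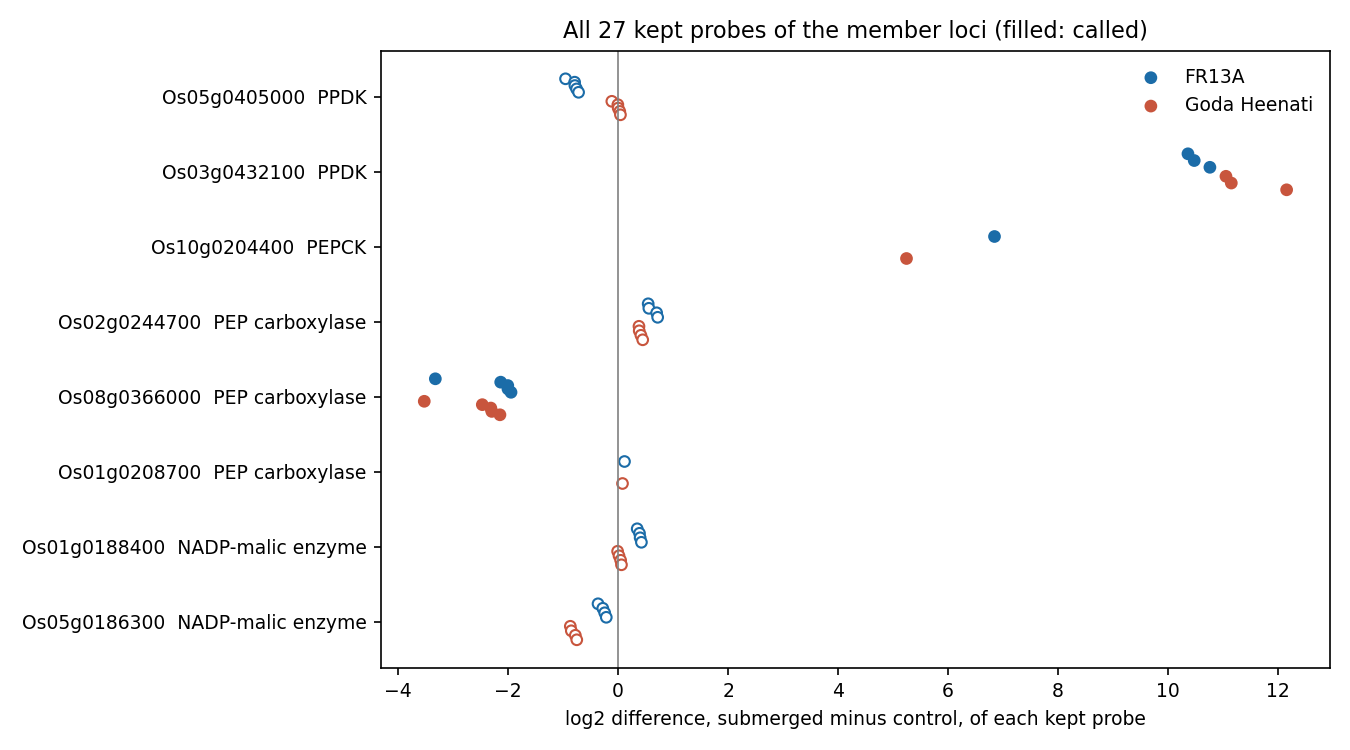
Log2 difference, submerged minus control, of each of the 27 kept probes of the 8 loci, in FR13A (blue) and Goda Heenati (red). Filled points are called and open points are not, and probes of a locus share their RNA and are not replicates. The probes of Os03g0432100 and of Os08g0366000 are all filled, from 10.36 to 12.16 and from -3.52 to -1.95.

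Os02g0244700, another PEP carboxylase locus, was slightly higher after submergence in all 6 pairs of arrays. Its levels were 1.84, 2.48 and 2.36 in FR13A controls and 2.85, 3.13 and 2.86 after submergence. In Goda Heenati they were 2.08, 2.48 and 2.57 in controls and 2.63, 3.10 and 2.74 after submergence. The groups did not overlap in either genotype, and in Goda Heenati the gap between the highest control and the lowest submerged array was small. The log2 difference in FR13A was 0.72 ± 0.24 (limma adjusted p = 0.0490), which passed the p threshold and missed the 2-fold minimum. In Goda Heenati it was 0.45 ± 0.24 (adjusted p = 0.202; 95% confidence interval -0.09 to 0.98). With the replicate number as a block the SE was 0.16, and both genotypes passed the p threshold and missed the 2-fold minimum. The limma adjusted p was then 0.00685 in FR13A and 0.0482 in Goda Heenati. The 4 kept probes gave 0.55 to 0.72 in FR13A and 0.38 to 0.45 in Goda Heenati, and the fifth probe was well above background on 0 of 12 arrays. At its brightest probe both submerged arrays of slide 1 were saturated, and with saturated spots left out the FR13A value was 0.77 (limma adjusted p = 0.0783).

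Os01g0208700, the remaining PEP carboxylase locus, had the narrowest range of levels of the 3. Over the 12 arrays it ranged from 0.56 to 1.69, and the groups overlapped in both genotypes. Its log2 difference was 0.11 ± 0.28 in FR13A (limma adjusted p = 0.804; 95% confidence interval -0.50 to 0.72) and 0.08 ± 0.28 in Goda Heenati (adjusted p = 0.863; -0.53 to 0.69). A 2-fold difference either way lies outside both intervals.

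Neither locus of NADP-malic enzyme, which releases CO2 from malate, was called. Os01g0188400 had levels of 0.97, -1.36 and 0.54 in FR13A controls and 0.73, -0.24 and 0.86 after submergence. In Goda Heenati they were 0.70, -1.37 and 0.54 in controls and 0.21, -0.68 and 0.52 after submergence. Replicate 2 was the lowest array in each of the 4 groups, 1.03 below the group means on average, and the groups overlapped. The log2 difference was 0.40 ± 0.69 in FR13A (limma adjusted p = 0.709; 95% confidence interval -1.14 to 1.94) and 0.06 ± 0.69 in Goda Heenati (adjusted p = 0.961; -1.48 to 1.60). Its 4 probes gave 0.35 to 0.42 in FR13A and -0.01 to 0.06 in Goda Heenati.

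Os05g0186300 had levels of -0.27, -2.06 and -0.41 in FR13A controls and -0.67, -1.91 and -1.25 after submergence. In Goda Heenati they were -0.39, -1.96 and -0.31 in controls and -2.16, -0.75 and -2.08 after submergence. In Goda Heenati replicate 2 ran against the other replicates, with a difference of 1.21 where the others gave -1.77 and -1.77. The fitted log2 difference was -0.36 ± 0.62 in FR13A (limma adjusted p = 0.704; 95% confidence interval -1.74 to 1.01) and -0.78 ± 0.62 in Goda Heenati (adjusted p = 0.399; -2.16 to 0.60). The intervals of both malic enzyme loci include 2-fold differences. With the replicate number as a block the SE of Os01g0188400 was 0.29 and that of Os05g0186300 0.59, and neither was called in either genotype (limma adjusted p from 0.281 to 0.879). The 4 probes gave -0.36 to -0.21 in FR13A and -0.87 to -0.75 in Goda Heenati.

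The next comparison asked whether the response to submergence differed between the genotypes, and it was tested as the interaction. None of the 8 loci was called, where 0.0396% of all loci were called as higher and 0.0528% as lower, FR13A minus Goda Heenati. None had an unadjusted p under 0.05 in the fit without a replicate block. PEPCK, Os10g0204400, had the largest difference between the responses among the 8, 1.59 (limma adjusted p = 0.99994; 95% confidence interval -0.63 to 3.82). By replicate number that difference was -1.26, 4.05 and 1.99, so 1 of 3 ran the other way. For Os03g0432100 it was -0.69 ± 1.22 (-3.40 to 2.02) and for Os08g0366000 0.20 ± 0.74 (-1.44 to 1.84). These intervals, from the fit without a replicate block, hold differences of more than 2-fold in either direction for PPDK and PEP carboxylase. With the block the SE was 0.89 for Os03g0432100 and 0.35 for Os08g0366000, and neither was called. Over the other 5 loci the estimates ran from -0.71 to 0.41.

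The genotypes were also compared within each treatment. Among controls 4.12% of all loci were called higher in FR13A and 4.33% lower, and none of the 8 was. For Os03g0432100 the log2 difference of FR13A from Goda Heenati was 0.59 ± 0.87, for Os10g0204400 it was -0.03 ± 0.71 and for Os08g0366000 0.42 ± 0.52, with a limma adjusted p of 0.980 for Os08g0366000 and above that for the others. Among submerged leaves 4.93% of all loci were called higher in FR13A and 5.23% lower, and again none of the 8 was. PEPCK, Os10g0204400, stood 1.56 ± 0.71 higher in submerged FR13A, with a 95% confidence interval of -0.01 to 3.13 and a limma adjusted p of 0.248. The arrays of replicate 1 differed by -0.06, those of replicates 2 and 3 by 3.40 and 1.35. Os03g0432100 differed by -0.11 ± 0.87 and Os08g0366000 by 0.63 ± 0.52. Over the other 5 loci the estimates ran from -0.15 to 0.20 in controls and from -0.54 to 0.44 after submergence. In the fit without a replicate block, none of the 8 had an unadjusted p under 0.05 in either treatment. With the block the SE among submerged leaves was 0.59 for Os10g0204400 and 0.25 for Os08g0366000. Neither was called there, with a limma adjusted p of 0.113 and 0.130. Unadjusted p-values of the fit with the block were not counted.

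Around these enzymes a list of 31 other loci was written, of which 28 were measured. It covers other PEP carboxylases and malic enzymes, the kinase of PEP carboxylase, the regulatory protein of PPDK, malate dehydrogenases, pyruvate kinases, enolases, a carbonic anhydrase and isocitrate lyase with malate synthase. As with the 8 loci, the class of each was assigned from general knowledge. In FR13A 1 of the 28 was called higher and 7 lower, where 10% and 11.8% of all loci were. In Goda Heenati 1 was called higher and 3 lower, where 9.08% and 11.5% of all loci were. With the replicate number as a block the counts were 1 higher and 9 lower in FR13A and 2 higher and 6 lower in Goda Heenati. The shares of all loci above are from the fit without the block, so the counts with the block cannot be set against them. The median log2 difference of the list was -0.48 in FR13A and -0.46 in Goda Heenati, against 0.05 and 0.09 for all loci. Without the block, the 7 lower in FR13A were 2 of 2 PEP carboxylases, 2 of 4 enolases, 1 of 7 malate dehydrogenases, 1 of 7 pyruvate kinases and 1 of 2 NAD-malic enzymes. The malate dehydrogenase called there had no value on FR13A submerged replicate 3, so its call rests on submerged replicates 1 and 2. Its probe was saturated on 2 arrays.

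**Figure D5:**
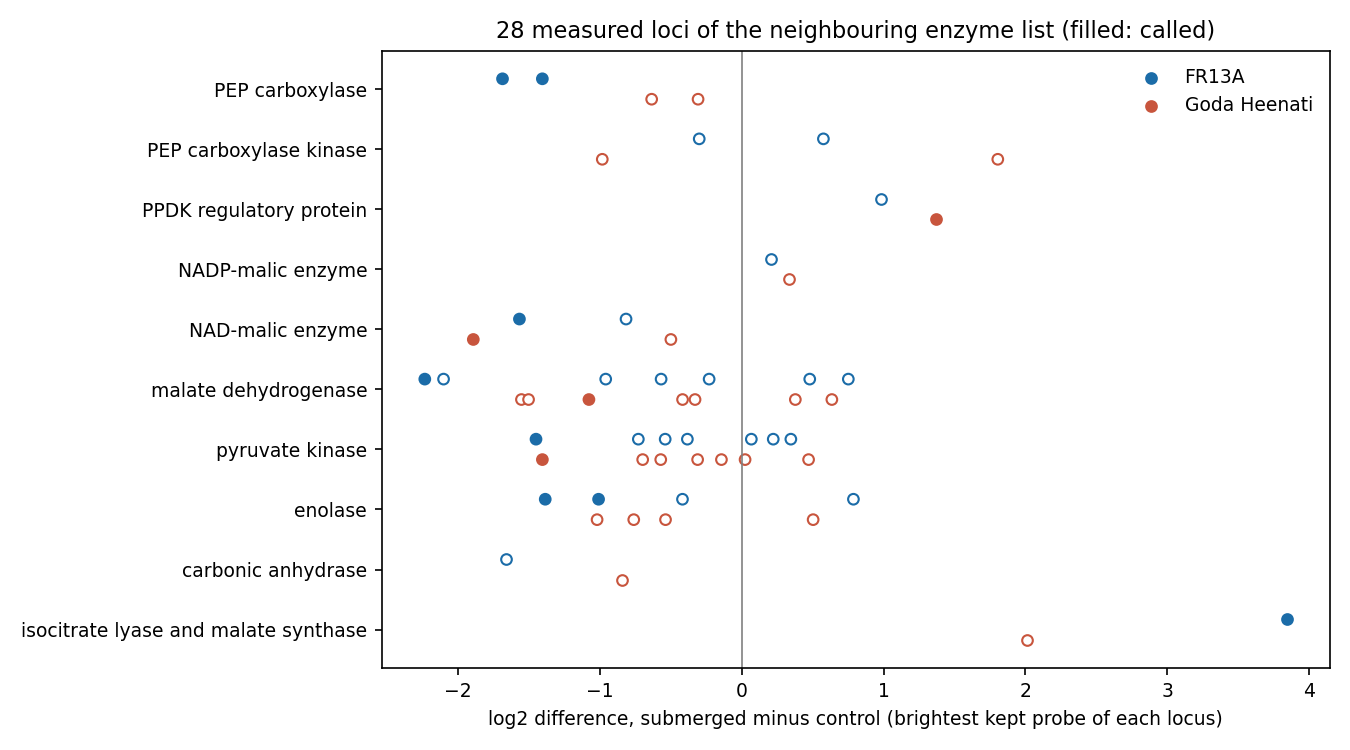
Log2 difference, submerged minus control, of the 28 measured loci of the list, by enzyme class, in FR13A (blue) and Goda Heenati (red). Filled points are called and open points are not. The locus listed for isocitrate lyase lies farthest to the right, at 3.84 in FR13A, where it was called, and 2.01 in Goda Heenati, where it was not.

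Os09g0315700, listed as a further PEP carboxylase, fell by 1.69 ± 0.27 on the log2 scale in FR13A (limma adjusted p = 0.00150). With normexp background correction it was -1.02 and not called (limma adjusted p = 0.171), and with normexp without the array on which the estimate failed it was -1.53 and called (adjusted p = 0.0127). Its value in Goda Heenati was -0.63 ± 0.27 (limma adjusted p = 0.110). The difference between these responses was -1.05 ± 0.38 and was not called (limma adjusted p = 0.796). Os10g0503500, listed as the NAD-malic enzyme that decarboxylates malate in mitochondria, fell by 1.57 ± 0.29 in FR13A (limma adjusted p = 0.00351) and fell by 1.89 ± 0.29 in Goda Heenati (adjusted p = 0.00122). Os01g0276700, listed as a pyruvate kinase, which uses PEP to make ATP, fell by 1.45 ± 0.36 in FR13A (limma adjusted p = 0.0144) and fell by 1.41 ± 0.36 in Goda Heenati (adjusted p = 0.0173). The FR13A call was lost without control replicate 3 (limma adjusted p = 0.0546) and without submerged replicate 2 (adjusted p = 0.0535). The Goda Heenati call was lost without control replicate 3 (limma adjusted p = 0.0610) and without submerged replicate 1 (adjusted p = 0.0592), both of Goda Heenati.

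Os07g0529000, listed as isocitrate lyase, the glyoxylate-cycle enzyme upstream of PEPCK in germinating oilseeds, rose by 3.84 ± 0.79 in FR13A (limma adjusted p = 0.00575). In Goda Heenati its value was 2.01 ± 0.79 and missed the call (limma adjusted p = 0.0903). Some alternatives did call it there, with limma adjusted p of 0.0427 (replicate block), 0.0405 (dimmest kept probe) and 0.0464 (compared groups alone). So did slides 2 and 3 (limma adjusted p = 0.0446) and normexp without the failed array (0.0283). The response of FR13A minus that of Goda Heenati was 1.83 ± 1.12 and was not called (limma adjusted p = 0.99994). By replicate number that difference was 4.07, -1.14 and 2.56. The locus was lower in FR13A than in Goda Heenati, with a log2 difference of -4.64 ± 0.79 in controls (limma adjusted p = 0.00288) and of -2.80 ± 0.79 in submerged leaves (limma adjusted p = 0.0470). The latter call was lost without any one of FR13A control replicate 2, FR13A submerged replicates 2 and 3, Goda Heenati control replicates 2 and 3 and the 3 submerged replicates of Goda Heenati. The limma adjusted p was then 0.0504 to 0.168. Os07g0530600, listed as the regulatory protein that switches PPDK on and off by phosphorylation, rose by 1.37 ± 0.34 in Goda Heenati (limma adjusted p = 0.0145). That call was lost without Goda Heenati control replicate 1 (limma adjusted p = 0.0559) and without submerged replicate 2 (adjusted p = 0.0596). Its value in FR13A was 0.98 ± 0.34 (limma adjusted p = 0.0544).

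Os02g0807000, listed as a kinase that activates PEP carboxylase, differed between the genotypes. It was well above background on 0 of 3 FR13A control arrays and 1 of 3 submerged ones, and on all 6 Goda Heenati arrays. Its probe passed the filter on dim probes only through the Goda Heenati groups, where it was high. In controls it was at least 21.2-fold higher in Goda Heenati. The fitted log2 difference in controls, -4.43 (limma adjusted p = 0.0176), rests on FR13A signals that were not well above background. It was also called lower in submerged FR13A (fitted log2 difference -5.66, limma adjusted p = 0.00346). The size of the difference in submerged leaves is not well measured, since the probe was not well above background on 2 of 3 submerged FR13A arrays. The call in controls was lost without FR13A control replicate 2 or 3 or Goda Heenati control replicate 1 or 3, with limma adjusted p of 0.0595 to 0.0746. With normexp background correction neither was called, at -2.34 in controls (limma adjusted p = 0.665) and -1.46 in submerged leaves (adjusted p = 0.502). With normexp without the failed array both were, at -2.34 (limma adjusted p = 0.0144) and -2.96 (adjusted p = 0.00905). Os09g0315700 was higher in FR13A controls by 1.09 ± 0.27 (limma adjusted p = 0.0267), and this call was lost without FR13A control replicate 2 or 3 or without any of the 3 Goda Heenati controls, with adjusted p of 0.0505 to 0.112, and with normexp (limma adjusted p = 0.502). With normexp without the failed array it was called (limma adjusted p = 0.0461). Whether the probes bind equally well to the transcripts of both genotypes was not tested.

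Loci with the most similar pattern were sought for the PPDK locus Os03g0432100 and the PEP carboxylase locus Os08g0366000, the members with the highest and lowest response averaged over both genotypes. Pearson's r was taken over the 12 arrays for 22021 loci, as a description, since arrays share treatments and slides. For Os03g0432100 the most similar were Os06g0142200 (r = 0.990) and Os07g0558900 (r = 0.989). Os06g0142200 was well above background on no control array and on all 6 submerged arrays, and was at least 553-fold higher in FR13A and 391-fold in Goda Heenati after submergence. Os07g0558900 was at least 1070-fold higher in FR13A, with no control array well above background, and its fitted log2 difference in Goda Heenati was 10.22. The size of the latter is not well measured, since 2 of 3 Goda Heenati control arrays were not well above background. Os06g0142200 and Os07g0558900 passed the filter on dim probes only through the submerged groups, where they were high. They were also picked for following Os03g0432100, so their rise is not separate support. For Os08g0366000 the most similar were Os07g0438800 (r = 0.983) and Os07g0593400 (r = 0.982). Their log2 differences were smaller, -0.39 and -0.73 in FR13A and -0.47 and -0.91 in Goda Heenati.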

How the data were processed

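Titles gave the groups and replicate numbers. Spot intensity was extracted by the authors in Agilent Feature Extraction, version 10.5.1.1, per the submitters' processing notes. Per the file headers, the deposited processed signal is a linear intensity after background removal. A second deposited table has log2 values, medians 10.03 in every column, and served as an alternative. The steps behind it are not given in the sources used here.

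Here, control spots, 59 probes named as controls and outlier spots were left out. Each array's 75th percentile was taken from its log2 processed signals, after averaging repeated spots. The filter on dim probes retained 33071 of 42418, those well above background on every array of some group, and a locus was read from its brightest retained probe. One limma 3.58.1 fit in R 4.3.3 (lmFit, eBayes) covered 4 group means on 12 arrays with 8 residual degrees of freedom. P-values were adjusted by Benjamini-Hochberg over 22744 loci, and limma's confidence intervals are for 95%. Calls and adjusted p-values of the single probes of a locus came from a separate limma fit of the same form. It covered the 33071 retained probes, and its p-values were adjusted over those probes. Precision is limited by having 3 arrays in each group. The fit was tested on simulated data.

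The members, the list of neighbouring enzymes, the tissue markers and the tests were chosen with earlier results of these data known. All 8 members are named by their brightest kept probe. From the neighbouring list the rule took up to 3 called loci with the smallest adjusted p in each submergence comparison, and any called between genotypes. The 2 loci most like the highest and the lowest responding member were also named.

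Arrays with the same replicate number shared a slide. All 18 same-numbered pairs deviated together from their group means (r from 0.261 to 0.787), so the numbers pair the arrays. The 36 other pairs gave -0.552 to 0.0308. Deviations within a group sum to 0, which pushes these down when same-numbered pairs are positive, so they are not separate support. Alternatives were normexp background correction (offset 50), quantile normalization, the authors' table, no dim filter, no saturated spots, other probes of a locus, a replicate block, no 2-fold minimum, each array left out and fits on the compared groups alone. Normexp used the median spot and background signals, since the deposited files hold no mean signal.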

Additional observations from a re-analysis of the deposited data

How the results depend on the processing

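The rise of Os03g0432100 and Os10g0204400 was called in both genotypes under each alternative run. Leaving out single arrays gave log2 differences of 9.75 to 11.20 and 6.50 to 7.43 in FR13A and of 10.43 to 12.05 and 4.70 to 5.90 in Goda Heenati. The other alternatives gave 8.89 to 11.29, 5.73 to 7.50, 10.15 to 12.16 and 4.48 to 5.27 in the same order. The number of members called lower ranged from 0 to 1 with single arrays left out, in FR13A and in Goda Heenati. It was 0 in FR13A with normexp and 0 with normexp when FR13A submerged replicate 2, on which its background estimate failed, was left out. That setting and the use of slides 2 and 3 alone were chosen after seeing the data. The cause was not tested. With the replicate number as a block, 2 members were called higher and 1 lower in each genotype, as without it. The block changed no other call of a member or of a named locus except Os07g0529000 in Goda Heenati, and moved the count of all loci called for the difference between the responses from 21 to 83.

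That count was also 44 with quantile normalization, 48 with the authors' table, 0 with normexp (7 without the failed array), 0 on slides 2 and 3, and 7 to 44 with single arrays left out. Loci called between submerged and control numbered 4957 in FR13A and 4681 in Goda Heenati, and 1864 and 1909 with normexp. They numbered 2847 and 4040 with normexp without the failed array, and 2569 and 2631 on slides 2 and 3. Between genotypes they numbered 1921 in controls and 2311 in submerged leaves, against 550 and 614 with normexp. With normexp without the failed array they numbered 1669 in controls and 1297 in submerged leaves.

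Of the neighbouring loci, on slides 2 and 3 the calls of Os10g0503500 in FR13A (limma adjusted p = 0.0750), Os01g0276700 in FR13A and Goda Heenati (0.131 and 0.175), Os07g0530600 in Goda Heenati (0.0788) and Os09g0315700 between controls (0.0706) were lost. The difference of Os07g0529000 between submerged leaves was not called with quantile normalization, the authors' table, no dim filter, normexp or the compared groups alone (limma adjusted p from 0.0509 to 0.0991, and 0.118 with normexp without the failed array). The compared groups alone also lost the call of Os01g0276700 in FR13A (limma adjusted p = 0.0623) and of Os09g0315700 between controls (0.0833).

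Some uncalled differences near 0 changed sign. Normexp gave 0.20 for Os05g0186300 in FR13A (0.094 without the failed array) and 0.11 for Os10g0204400 between controls (0.11 without it). Os01g0208700 in Goda Heenati was -0.0090 with quantile normalization and -0.017 with the authors' table. On slides 2 and 3 Os05g0405000 was 0.32 in Goda Heenati, Os08g0366000 was -0.13 for the difference between the responses, and Os02g0807000 was -0.26 in FR13A. With single arrays left out, the submergence difference ranged from -0.092 to 0.25 for Os01g0208700, -0.30 to 0.86 for Os01g0188400, -0.85 to 0.036 for Os05g0186300 and -0.79 to 1.39 for Os02g0807000 in FR13A. In Goda Heenati it ranged from -0.29 to 0.52 for Os05g0405000, -0.14 to 0.33 for Os01g0208700 and -0.60 to 0.43 for Os01g0188400. The difference between responses ranged from -1.69 to 0.15 for Os03g0432100 and -0.22 to 0.60 for Os08g0366000. Between genotypes Os10g0204400 ranged from -0.58 to 0.48 in controls and Os03g0432100 from -1.11 to 0.73 in submerged leaves.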
